A study of Homo sapiens with 5 samples.

Results

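Interferon-stimulated genes are the genes that cells switch on when interferon, a secreted antiviral signal, binds its receptor. The 39 described here, out of 19936 genes in each library, were taken by name and found by their Ensembl gene IDs, and all 39 were present. They are effector and regulator genes of the interferon response, without the OAS enzymes and the sensors of foreign RNA. RNA was sequenced from LX-2 cells, an immortalised line derived from human hepatic stellate cells, the main scar-forming cells of the liver. All cells were transfected with a small interfering RNA (siRNA) and cultured for 48 h. The siRNA was directed against LIX1L in 3 libraries (siLIX1L 1, 2 and 3) and was a control siRNA in 2 libraries (control 1 and 2), so every group carried transfected double-stranded RNA and untransfected cells were not analysed here. Whether each library is a culture of its own, and how many siRNA sequences were used, is not in the labels, and p-values therefore describe the variation among these 5 libraries, part or all of which may be technical.

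Interferon alpha and beta bind the receptor IFNAR1 and IFNAR2, and the kinases JAK1 and TYK2 then activate STAT2. A complex that holds STAT2 and IRF9 binds the interferon-stimulated response element (ISRE) in promoters. Interferon gamma acts mainly through another element, GAS, and through IRF1, a transcription factor that drives immunoproteasome and guanylate-binding protein genes. Stellate cells are known to respond to both kinds of interferon, and in this tissue the response is known for antiviral defence and for effects on scar formation.

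The libraries held 14856104 to 18294056 reads over the annotated genes. Levels are given as RPM, reads per 1000000 of these totals, where 3 reads are worth 0.164 to 0.202 RPM. LIX1L itself had 98, 107 and 65 reads in siLIX1L 1, 2 and 3, against 393 and 649 in control 1 and 2. Reads of mitochondrially encoded genes were 1.08 to 1.29% in the siLIX1L libraries and 2.24 and 3.35% in the controls, and the part of this in the results was not tested. The libraries siLIX1L 1 and 2 were close to each other, with a chi-square per gene of 5.38 against 52.7 or more in every other pair, and were kept as 2 samples. Of 12 stellate cell and fibroblast markers 11 had enough reads to test, with summed levels of 6883 to 7349 RPM in siLIX1L libraries and 4242 and 11193 RPM in controls, while DES reached at most 0.711 RPM. By edgeR, 2 of these 11 had positive and 9 negative fold changes of siLIX1L over control (47.3% of all genes positive). EdgeR called 1 of the 11 lower (0.883% of all genes) and 0 higher (0.56%). In 3 of the 11 all siLIX1L libraries lay below both controls (21.8% of all genes), and in 0 above (22.2%). The median log2 fold change of the 11 was -0.63, against -0.04 over all genes. The part of these markers in the results was not tested. Of the markers of hepatocytes, leukocytes, endothelium and bile duct cells, TTR and CD3E had no read, and ALB, APOA1, CDH5 and EPCAM reached at most 0.219 RPM in any library. Summed levels were 3.16, 2.32 and 4.38 RPM in siLIX1L libraries and 4.17 and 7.43 RPM in controls for hepatocyte markers. Leukocyte markers summed to 7.54, 9.67 and 5.89 RPM in siLIX1L libraries and 11.3 and 38.2 RPM in controls. Endothelial markers summed to 3.30, 7.15 and 5.22 RPM in siLIX1L libraries and 5.38 and 2.41 RPM in controls, and bile duct markers to 105, 103 and 53.9 RPM in siLIX1L libraries and 46.4 and 31.4 RPM in controls. Most of the last list was SOX9, at 104, 102 and 50.7 RPM in siLIX1L libraries and 42.0 and 28.8 RPM in controls, and most of the leukocyte sum was CD14, at 6.53, 7.81 and 4.72 RPM in siLIX1L libraries and 8.81 and 35.7 RPM in controls; their part in the results was not tested. In bulk RNA, a change in the number of cells that express a gene and a change in RNA per cell cannot be told apart.

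The promoters below show where the response element lies in 5 of these genes. They are those with the smallest edgeR p among members that hold its letters, read here as GAAA, any 2 bases and GAAA again, on either strand. Each is the RefSeq window on GRCh38.p14 from 250 bases before to 50 bases after a start site, 5′ to 3′ on the gene's strand, with the matching letters in capitals.
SAMD9 (chr7:93117930-93118229, minus strand): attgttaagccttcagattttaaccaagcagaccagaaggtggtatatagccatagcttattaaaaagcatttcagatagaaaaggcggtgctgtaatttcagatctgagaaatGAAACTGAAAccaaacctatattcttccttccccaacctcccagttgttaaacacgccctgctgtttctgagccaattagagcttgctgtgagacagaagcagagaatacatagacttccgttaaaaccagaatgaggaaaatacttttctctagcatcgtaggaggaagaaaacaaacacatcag
IFI44L (chr1:78620198-78620497, plus strand): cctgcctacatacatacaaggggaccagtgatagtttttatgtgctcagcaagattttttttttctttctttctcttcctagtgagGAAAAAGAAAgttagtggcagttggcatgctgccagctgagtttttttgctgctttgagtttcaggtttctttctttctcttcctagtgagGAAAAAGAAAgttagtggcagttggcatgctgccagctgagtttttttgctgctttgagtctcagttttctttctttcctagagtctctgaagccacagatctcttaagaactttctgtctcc
PARP14 (chr3:122680589-122680888, plus strand): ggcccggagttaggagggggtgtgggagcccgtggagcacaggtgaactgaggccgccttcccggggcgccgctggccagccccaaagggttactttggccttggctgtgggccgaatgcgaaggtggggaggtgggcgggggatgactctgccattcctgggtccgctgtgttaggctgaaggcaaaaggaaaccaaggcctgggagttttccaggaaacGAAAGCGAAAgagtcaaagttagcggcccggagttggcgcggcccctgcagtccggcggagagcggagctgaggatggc
IFIT5 (chr10:89414318-89414617, plus strand): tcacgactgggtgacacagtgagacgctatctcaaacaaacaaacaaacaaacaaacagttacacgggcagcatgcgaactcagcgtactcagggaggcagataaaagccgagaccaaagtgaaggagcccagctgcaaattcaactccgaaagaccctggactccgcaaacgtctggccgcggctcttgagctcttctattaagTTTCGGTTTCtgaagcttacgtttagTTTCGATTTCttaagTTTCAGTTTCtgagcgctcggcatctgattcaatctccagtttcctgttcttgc
IFIT1 (chr10:89392373-89392672, plus strand): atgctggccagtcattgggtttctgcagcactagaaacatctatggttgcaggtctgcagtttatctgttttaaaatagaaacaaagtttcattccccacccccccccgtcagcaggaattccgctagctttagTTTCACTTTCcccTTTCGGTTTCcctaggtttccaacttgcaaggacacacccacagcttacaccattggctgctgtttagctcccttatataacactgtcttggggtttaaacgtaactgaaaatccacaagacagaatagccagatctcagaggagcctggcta

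SAMD9, IFI44L and PARP14 hold the letters on the gene's strand, and IFIT5 and IFIT1 hold the reverse complement, TTTC, any 2 bases and TTTC. IFIT5 has 3 matches, the last of which spans its start site, IFIT1 and IFI44L have 2 each, and SAMD9 and PARP14 have 1 each. Promoter windows were found for 33 of the 39 members, 44 windows in all; IFIT2, MX2, IFITM2, IRF7, USP18 and TRIM22 had no entry. The letters were present in at least 1 window of 23 of these 33 genes (69.7%), against 434 of 10589 genes tested by edgeR (4.1%), or in 61.4% of the members' windows and 3% of those of the tested genes. The members are known targets of interferon, and a match is a description of letters, not of binding. GAS letters, TTCNNNGAA, which read the same on both strands, were in 33.3% of the members and 8.74% of tested genes, and overlapped ISRE letters in 5 windows. IRF1 and IRF9 held GAS but no ISRE letters in their windows. In the map of matches along the promoters, genes with ISRE letters stand at the top, in the middle and near the bottom of the order by difference.

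**Figure D1:**
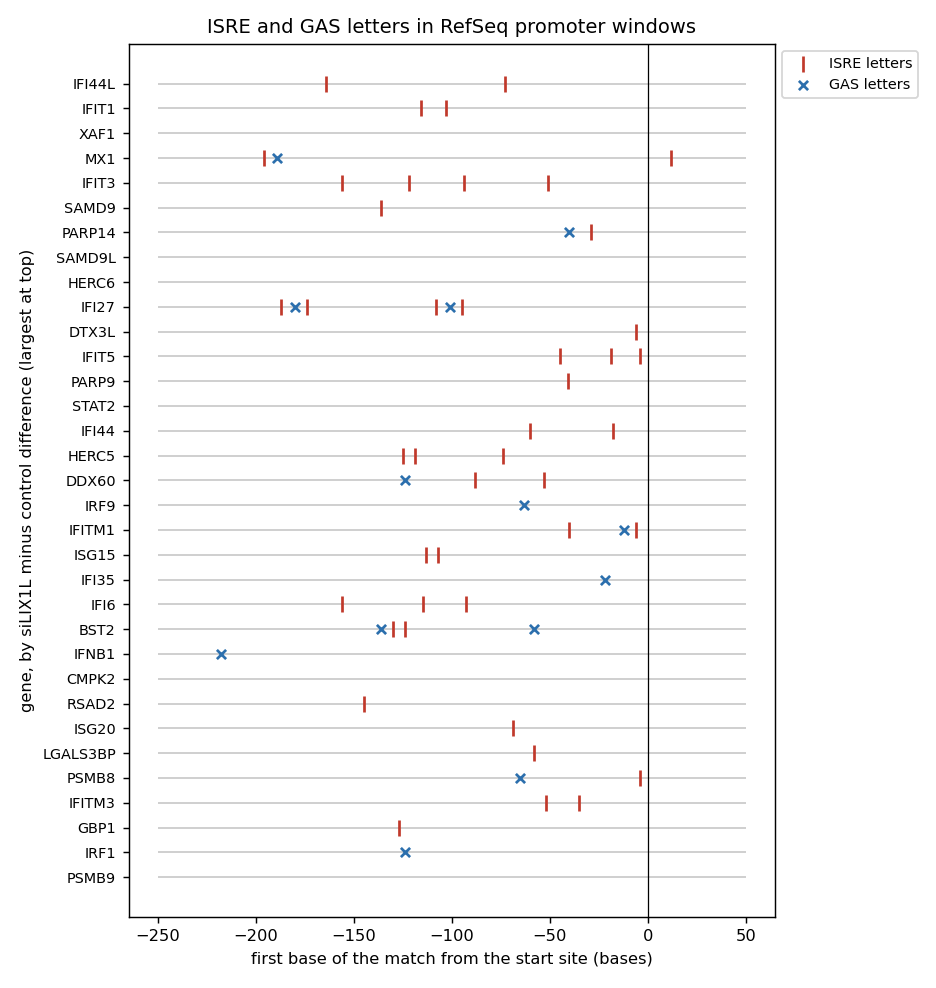
Position of ISRE letters (red bars) and GAS letters (blue crosses) in the RefSeq promoter windows of 33 interferon-stimulated genes, in bases from the start site, with genes ordered by the siLIX1L minus control difference in log2(RPM + 0.5). Matches are spread along the order: GBP1 near the bottom holds ISRE letters, whereas XAF1, SAMD9L and HERC6 near the top hold none in these windows.

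Many members were higher in every siLIX1L library than in both controls, and 1 gene passed the main test. In 21 of the 39 genes all 3 siLIX1L libraries lay above both controls, among them the whole IFIT, ISG15 and PARP groups, and in 3 genes (IRF1, GBP1 and PSMB9) all 3 lay below. Such a separation upward was seen in 22.2% and downward in 21.8% of all genes tested by edgeR. The 24 separated members left 15 in which the groups overlapped. The median difference over all 39 genes was 0.80 in log2(RPM + 0.5), against -0.01 over the genes tested by edgeR. It was 0.63 without siLIX1L 3 and 0.59 without control 1, and 20 to 29 members lay wholly above the controls when any 1 library was left out or the libraries were rescaled, settings in which 22.9 to 41.1% of all genes did.

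The main test was limma on the deposited FPKM (fragments per kilobase of gene length per 1000000 reads), as log2(FPKM + 1), over genes with at least 1 FPKM in 2 libraries. The lengths used include introns, which lowers the FPKM of genes with long ones. Of the 39 genes 6 fell below that minimum (ISG20, IFI27, DDX60, RSAD2, and IFNB1 and CMPK2, which had few reads at all). Of the 33 tested, 7 had no control library at 1 FPKM and passed the minimum through the siLIX1L libraries alone. These 7 were MX2, HERC5, HERC6, XAF1, USP18, TRIM22 and IRF9. Counts over the 33, and the limma p-values given for any of these 7, are therefore a description. SAMD9 rose, 1 of 33, with 0.743% of all 6464 genes called higher, and no member fell, with 1.13% called lower. Unadjusted limma p was under 0.05 for 22 of the 33, against 1785 of all 6464 genes. Of the 33 differences 26 were positive (49.4% of all genes). Besides SAMD9, 12 members had limma adjusted p from 0.0517 to 0.0783. They include IRF1, which was lower in siLIX1L, and MX2, HERC6, XAF1 and USP18, which had no control library at 1 FPKM. The share of all genes in that range was not counted. On the reads themselves, edgeR also called SAMD9 alone among 37 members (0.56% of all genes called higher, 0.883% lower; 23 members with unadjusted p under 0.05). The edgeR fold change was positive in 29 of 37 members (47.3% of all genes) and its log2 was over 1 in 15 (3.75%). DESeq2, whose calls were far more frequent in these libraries, called 17 of 37 higher and 1 lower, IRF1, against 6.32% and 6.22% of all genes. With 3 libraries against 2, the p of an exact two-sided rank-sum test of 1 gene could not go below 0.2.

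**Figure D2:**
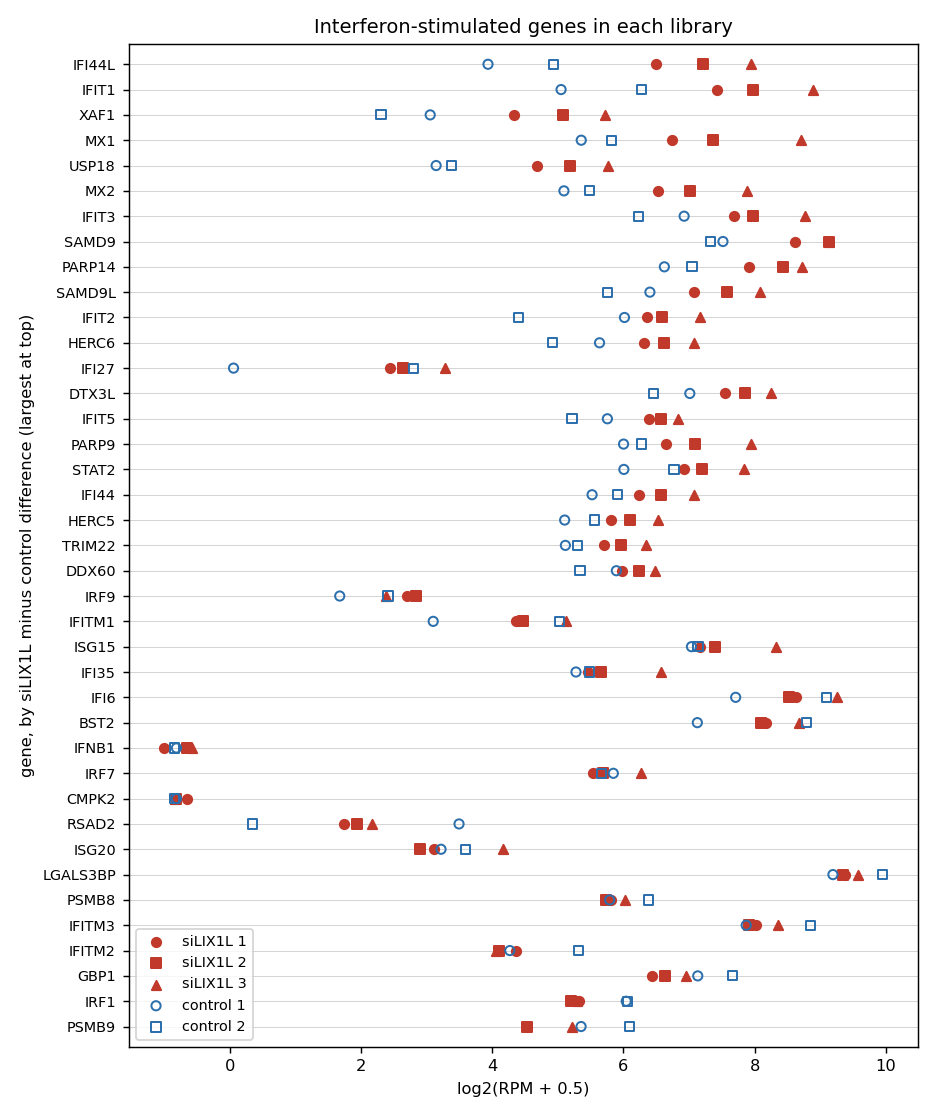
Level of each of the 39 interferon-stimulated genes as log2(RPM + 0.5) in siLIX1L 1, 2 and 3 (filled red) and in control 1 and 2 (open blue), ordered by the siLIX1L minus control difference. All 3 siLIX1L libraries lie above both controls in 21 genes, mostly in the upper part, and below both in IRF1, GBP1 and PSMB9 at the bottom.

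Among the ligand and the transcription factors, interferon beta RNA was near the limit of detection, STAT2 was higher and IRF1 lower in every siLIX1L library. IFNB1, which encodes interferon beta (ENSG00000171855, GRCh38 chromosome 9, 21077105 to 21077963, minus strand), had 0, 2 and 3 reads in siLIX1L 1, 2 and 3, and 1 and 1 in control 1 and 2, at or under 3 reads in each library. STAT2, a transcription factor of the response to interferon alpha and beta, had 120.5, 147 and 229 RPM in siLIX1L 1, 2 and 3, against 63.8 and 109 RPM in control 1 and 2. All siLIX1L values were above the controls, with control 2 close to siLIX1L 1, and the limma difference, 0.80 (SE 0.30, limma adjusted p = 0.153), did not pass. IRF1, which was first known as a regulator of interferon genes (ENSG00000125347, GRCh38 chromosome 5, 132481609 to 132490798, minus strand), had 39.5, 36.1 and 38.7 RPM in siLIX1L libraries, against 65.4 and 66.3 RPM in controls. Here the libraries of each group lay close together, 1.73-fold lower in siLIX1L by mean RPM, and limma gave -0.67 (SE 0.13, limma adjusted p = 0.0548). IRF1 passed in DESeq2 (adjusted p = 0.00605) and in limma without control 1, where its difference was -0.67 (adjusted p = 0.0257), a fit in which control 2 alone is assumed to vary like the siLIX1L libraries. Another transcript and C5orf56 overlap IRF1 on the other strand; strand-specific counting is not stated.

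IRF7, which amplifies interferon production, had 45.9, 51.3 and 76.9 RPM in siLIX1L libraries and 57.0 and 50.2 RPM in controls, with overlapping groups. IRF9, the DNA-binding partner of STAT2, had 5.99, 6.62 and 4.72 RPM in siLIX1L libraries and 2.69 and 4.81 RPM in controls. IRF9 is overlapped by another annotated gene on its own strand, so its count is uncertain too. The upstream genes of the pathway were read from a list of 42 ligands, receptors and signalling genes. Of these, 16 had no read in any library, 20 had enough reads for edgeR, 8 with positive and 12 with negative differences, and none passed in limma (0.743% of all genes called higher, 1.13% lower) or edgeR (0.56% and 0.883%). DESeq2 called 2 of 21 higher and 1 lower, against 6.32% and 6.22% of all genes. Of the 20, the siLIX1L libraries lay wholly above the controls in 2 and wholly below in 3, against 22.2% and 21.8%. JAK1 had 344, 379.6 and 314 RPM in siLIX1L libraries and 248 and 196 RPM in controls (limma adjusted p = 0.107). TYK2 had 139, 131 and 122 RPM in siLIX1L libraries and 135 and 149 RPM in controls, which overlapped. IFNAR1 had 61.5, 59.7 and 122 RPM in siLIX1L libraries and 96.2 and 92.3 RPM in controls, with siLIX1L 3 apart from the other siLIX1L libraries. IFNAR2 did not exceed 0.273 RPM in any library, and an annotated gene overlaps it on the same strand, so its count is uncertain. Annotated genes also overlap IFNAR1 on the same strand and JAK1 on the other strand.

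All 4 IFIT genes were higher in every siLIX1L library than in both controls. IFIT proteins bind viral RNA and block its translation. IFIT1 (ENSG00000185745, GRCh38 chromosome 10, 89392546 to 89406486, plus strand) had 172, 251 and 472 RPM in siLIX1L 1, 2 and 3, against 32.6 and 76.7 RPM in control 1 and 2, a mean ratio of 5.46. The level in siLIX1L 3 was the highest of the 5 libraries, control 2 was above control 1, and the limma difference was 2.15 (SE 0.45, limma adjusted p = 0.0590). That ratio became 9.15 without control 2 and 3.87 without siLIX1L 3. IFIT3, which stabilises IFIT1, had 205, 252 and 434 RPM in siLIX1L libraries, against 121 and 74.7 RPM in controls (3.03-fold, limma adjusted p = 0.0719). IFIT2, a further member of that complex, had 81.2, 95.2 and 144 RPM in siLIX1L libraries and 64.2 and 20.7 RPM in controls. In contrast to IFIT1, control 1 was the higher control for IFIT2, and its ratio of 2.52 became 5.17 without control 1 and 1.66 without control 2. IFIT5 had 83.6, 94.9 and 113 RPM in siLIX1L libraries, against 53.5 and 36.6 RPM in controls (2.16-fold, limma adjusted p = 0.0576). LIPA overlaps IFIT1, IFIT2 and IFIT3 on the other strand, and the IFIT genes share sequence, so some of their reads may be assigned among them.

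ISG15 is a small protein that is joined to other proteins like ubiquitin. Its 4 genes here separated the groups, but by very different amounts. ISG15 had 144, 167 and 321 RPM in siLIX1L libraries, against 131 and 140.4 RPM in controls, so siLIX1L 1 was barely above control 2 and siLIX1L 3 stood apart (1.55-fold, limma adjusted p = 0.356; 1.15-fold without siLIX1L 3). USP18, the protease that removes ISG15 and also dampens the interferon receptor, had 25.1, 35.8 and 54.0 RPM in siLIX1L libraries, against 8.33 and 9.89 RPM in controls. Every siLIX1L library was well above both controls, which lay close together, a mean ratio of 4.20. The limma adjusted p of USP18, 0.0655, is a description, as no control library reached 1 FPKM. HERC5, the ligase that attaches ISG15, had 55.3, 67.9 and 91.8 RPM in siLIX1L libraries and 33.9 and 46.5 RPM in controls (1.79-fold, limma adjusted p = 0.143). HERC6, its close relative, had 78.8, 97.3 and 134 RPM in siLIX1L libraries and 49.2 and 29.7 RPM in controls (2.62-fold, limma adjusted p = 0.0746).

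The antiviral effectors divided into those that were higher and those that were not. SAMD9, a restriction factor of poxviruses (ENSG00000205413, GRCh38 chromosome 7, 93099513 to 93118023, minus strand), had 393, 562 and 560.4 RPM in siLIX1L libraries, against 183 and 159.7 RPM in controls. The siLIX1L libraries lay far above the controls, which were close to each other, and SAMD9 rose 2.95-fold by mean RPM, with a limma difference of 1.45 (SE 0.21, limma adjusted p = 0.0384) and an edgeR adjusted p of 0.0455. The ratio was 2.76 to 3.28 when each library in turn was left out, but the call was lost without control 2 (limma adjusted p = 0.0544) or without siLIX1L 1, 2 or 3 (limma adjusted p = 0.144, 0.228 and 0.0779). SAMD9L, its neighbour and paralog on the same chromosome, had 134, 191 and 270.5 RPM in siLIX1L libraries and 84.2 and 53.6 RPM in controls (2.88-fold, limma adjusted p = 0.0694). MX1, a GTPase that traps viral nucleocapsids, had 106, 164 and 418 RPM in siLIX1L libraries, against 40.5 and 56.0 RPM in controls. Its siLIX1L libraries were spread 3.94-fold among themselves, more than the controls, and the ratio of 4.76 (limma adjusted p = 0.110) became 2.80 without siLIX1L 3. MX2, which acts on retroviruses, had 91.5, 129 and 237 RPM in siLIX1L libraries, against 33.6 and 44.1 RPM in controls (3.93-fold, limma adjusted p = 0.0783).

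Smaller differences were seen in TRIM22 and DDX60. TRIM22, a ubiquitin ligase, had 51.8, 61.8 and 80.6 RPM in siLIX1L libraries and 34.1 and 38.97 RPM in controls (1.77-fold, limma adjusted p = 0.118). DDX60, a helicase below the FPKM minimum, had 62.2, 75.0 and 89.2 RPM in siLIX1L libraries and 58.9 and 39.9 RPM in controls (1.53-fold, edgeR adjusted p = 0.177). Its siLIX1L 1 level was close to that of control 1, although the groups did not overlap. The cell-surface tether BST2 had 288, 275 and 411 RPM in siLIX1L libraries and 139 and 443 RPM in controls, which enclosed all 3 siLIX1L values. The exonuclease ISG20 had 8.14, 6.95 and 17.5 RPM in siLIX1L libraries and 8.81 and 11.5 RPM in controls, again overlapping. RSAD2, or viperin, which makes a chain-terminating nucleotide, had 2.83, 3.31 and 3.99 RPM in siLIX1L libraries and 10.8 and 0.765 RPM in controls. In RSAD2 the controls differed 14.1-fold and lay to either side of the siLIX1L libraries (edgeR adjusted p = 0.607), so the siLIX1L over control ratio was 4.41 without control 1 and 0.314 without control 2. CMPK2, which lies head to head with RSAD2, had 2, 1 and 1 reads in siLIX1L libraries and 1 and 1 in controls, too few to compare. GBP1, a guanylate-binding protein that attacks the membranes around intracellular microbes, was lower in every siLIX1L library. It had 86.3, 99.0 and 123 RPM in siLIX1L libraries, against 139.9 and 203 RPM in controls, 1.66-fold lower, with a limma difference of -0.66 (SE 0.22, limma adjusted p = 0.125).

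Of the IFI genes and XAF1, 3 separated the groups and 3 did not. IFI44L, a negative regulator of the response, had 90.2, 148 and 246 RPM in siLIX1L libraries, against 14.8 and 30.2 RPM in controls. With all libraries this was the highest mean ratio of the 39 genes, 7.19, with a limma difference of 1.88 (SE 0.35, limma adjusted p = 0.0517), just outside the threshold, and an edgeR log2 fold change of 2.82 (adjusted p = 0.0534). The ratio was 5.36 without control 1, below that of XAF1 (7.91), 10.9 without control 2 and 5.30 without siLIX1L 3. IFI44L passed with a pseudocount of 0.1 (limma adjusted p = 0.0480) and on log2(RPM + 0.5) (limma adjusted p = 0.0490). XAF1, a proapoptotic factor, had 19.7, 33.2 and 52.2 RPM in siLIX1L libraries, against 7.80 and 4.43 RPM in controls (5.73-fold, limma adjusted p = 0.0693). IFI44, the neighbour of IFI44L, had 75.1, 94.9 and 134 RPM in siLIX1L libraries and 45.4 and 59.7 RPM in controls (1.93-fold, limma adjusted p = 0.111).

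IFI35 had 43.6, 49.7 and 94.9 RPM in siLIX1L libraries and 38.2 and 44.3 RPM in controls. Only siLIX1L 3 was clearly above the rest in IFI35. IFI6, a mitochondrial and endoplasmic reticulum protein, had 397, 368 and 612 RPM in siLIX1L libraries and 209 and 547 RPM in controls, and control 2 was above siLIX1L 1 and 2. IFI27, a short mitochondrial protein, had 4.91, 5.69 and 9.21 RPM in siLIX1L libraries and 0.538 and 6.45 RPM in controls. Control 1 alone was low in IFI27, with 8 reads, so its ratio of 1.89 became 1.02 without that library and 12.3 without control 2.

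The 3 IFITM genes, which encode small membrane proteins that block viral fusion, overlapped between the groups. IFITM1 had 19.99, 21.7 and 34.2 RPM in siLIX1L libraries and 8.07 and 32.0 RPM in controls. IFITM2 had 20.1, 16.8 and 16.1 RPM in siLIX1L libraries and 18.8 and 39.4 RPM in controls. IFITM3 had 259, 241 and 328 RPM in siLIX1L libraries and 234 and 460.4 RPM in controls. In all 3 control 2 was the higher control, and the limma differences (adjusted p = 0.535, 0.259 and 0.625) did not pass. Without control 1 the IFITM1 difference was -0.36, against 0.53 with all libraries, and without control 2 the IFITM3 difference was 0.22, against -0.26. These genes share sequence, the annotated span of IFITM2 covers IFITM1, and the treatment of reads that fit several genes is not stated, so their separate values are uncertain.

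PARP9, PARP14 and DTX3L were higher in every siLIX1L library. PARP14, an ADP-ribosyltransferase that is known to support interferon signalling, had 241, 346 and 423 RPM in siLIX1L libraries, against 98.1 and 132 RPM in controls. The ratio was 2.93 with a limma difference of 1.21 (SE 0.23, limma adjusted p = 0.0536), and PARP14 passed at a minimum of 5 FPKM (limma adjusted p = 0.0473). PARP9 had 99.8, 136 and 245 RPM in siLIX1L libraries and 63.6 and 77.0 RPM in controls (2.28-fold, limma adjusted p = 0.148). DTX3L, the ubiquitin ligase that pairs with PARP9, had 188, 230.4 and 306 RPM in siLIX1L libraries and 129 and 87.7 RPM in controls (2.23-fold, limma adjusted p = 0.0719). PARP9 and DTX3L start back to back and overlap at their ends, so a few of their reads cannot be assigned without strand.

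The immunoproteasome subunits and LGALS3BP were not higher in the siLIX1L libraries as a group. PSMB9, which replaces a catalytic subunit of the proteasome and is driven by IRF1 in many cells, had 22.6, 22.6 and 36.8 RPM in siLIX1L libraries, against 40.4 and 67.6 RPM in controls. Every siLIX1L library was below both controls, 1.97-fold lower by mean RPM, and limma gave -0.69 (SE 0.23, limma adjusted p = 0.123). PSMB8, the neighbouring subunit gene, had 55.7, 53.0 and 64.2 RPM in siLIX1L libraries and 54.8 and 82.8 RPM in controls. LGALS3BP, a secreted glycoprotein, had 662, 652 and 762 RPM in siLIX1L libraries and 586 and 989.8 RPM in controls. Both overlapped, with control 2 above the siLIX1L range (limma adjusted p = 0.544 and 0.755). PSMB8, PSMB9 and an antisense transcript overlap each other in the annotation, and TAP1 overlaps PSMB9 on the other strand. Without control 1, limma called IRF1, GBP1, PSMB9 and IFITM2 lower, 4 of 33 members against 11.9% of all genes, and 7 of 33 higher, against 12.2%. The share called lower is close to that of all genes, and without control 2 limma called none of the 33 (21 at unadjusted p under 0.05).

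Per kilobase of the longest coding transcript, the members with the highest levels were not those with the largest differences. IFI6 had 546 ± 158 RPKM in siLIX1L libraries (SD, n = 3) and 449.5 ± 284 RPKM in controls (SD, n = 2). IFITM3 had 342 ± 56.6 RPKM in siLIX1L libraries and 429.6 ± 198 RPKM in controls. LGALS3BP had 288 ± 25.3 RPKM in siLIX1L libraries and 328 ± 119 RPKM in controls, and BST2, similar in level, had 318 ± 73.9 RPKM in siLIX1L libraries and 286 ± 211 RPKM in controls. In the controls these 4 cannot be put in order beyond their spread, and none of them separated the groups. IFI44L and XAF1, with the highest ratios over all libraries, were among the lowest in the controls, at 27.5 ± 13.4 and 9.67 ± 4.50 RPKM in siLIX1L libraries and 3.83 ± 1.85 and 1.69 ± 0.658 RPKM in controls.

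The 3 siLIX1L libraries did not hold the same levels of these genes. The 39 genes summed to 4479, 5287 and 7687 RPM in siLIX1L 1, 2 and 3, against 2963 and 4376 RPM in control 1 and 2. By this sum control 2 nearly reached siLIX1L 1. The members with the most RPM in control 2, LGALS3BP, IFI6, IFITM3 and BST2, overlapped between the groups. They had 989.8, 547, 460.4 and 443 RPM in control 2, against 662, 397, 259 and 288 RPM in siLIX1L 1. In 21 of the 39 genes every siLIX1L library lay above both controls. SiLIX1L 3 was the highest of the 5 libraries in 26 of 37 members, against 16.4% of all genes, and stood over 1.5-fold above the mean of siLIX1L 1 and 2 in 21 of 37, against 8.94%. The median of that ratio was 1.58 over the members and 0.969 over all genes. Between siLIX1L 1 and 2, the pair that was otherwise so alike, siLIX1L 2 was more than 1.2-fold higher in 17 of 37 members (9.04% of all genes) and more than 1.2-fold lower in 0 (10.9%). The 95% counting interval of the ratio lay above 1 in 24 members, below 1 in 4 and included 1 in 9, and such intervals cover counting error only. XAF1 had the largest such ratio of these members, with siLIX1L 2 over siLIX1L 1 at 1.69 (95% counting interval 1.46 to 1.95), followed by IFI44L at 1.64 (95% counting interval 1.53 to 1.76) and MX1 at 1.55 (95% counting interval 1.45 to 1.65). SAMD9 differed by 1.43 (95% counting interval 1.38 to 1.48). LIX1L was lowest in siLIX1L 3, at 0.148 FPKM, against 0.268 and 0.288 FPKM in siLIX1L 1 and 2, and no relation across 3 libraries was tested. The sample number of siLIX1L 3 lies outside the run of the other libraries, and raw counts were deposited for it alone. Whether it was prepared apart from them is not in the labels.

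**Figure D3:**
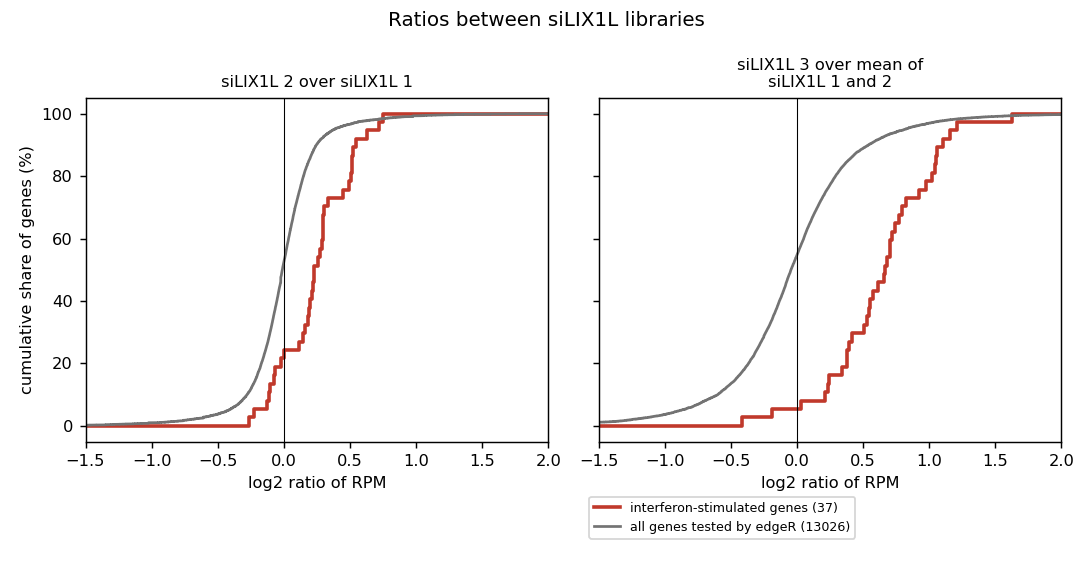
Cumulative share of genes by the ratio of RPM in siLIX1L 2 over siLIX1L 1 (left) and in siLIX1L 3 over the mean of siLIX1L 1 and 2 (right), as log2 ratios, for 37 interferon-stimulated genes and for all genes tested by edgeR. The members lie to the right of all genes in both panels, with median ratios of 1.17 and 1.58, against 0.99 and 0.969 over all genes.

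The 2 controls differed as well, and in both directions. Control 2 was above control 1 in 26 of 37 members, more than 2-fold in 7 (7.82% of all genes), and more than 2-fold below it in 2 (8.64%). The median ratio was 1.31 over the members and 0.945 over all genes. The 7 genes are BST2, IFI6, IFI27, IFITM1, IFITM2, IFIT1 and IFI44L, and the 2 are RSAD2 and IFIT2. Of these, IFIT1, IFI44L and IFIT2 still separated the groups. Without 1 library the mean siLIX1L over control ratio moved by more than 1.5 times in 11 of the 39 genes. Beside those described above, these were IFI6, BST2, IFITM1 and IFITM2, and IFNB1, whose reads are too few for a ratio. The ratio of IFI6, 1.21 with all libraries, was 0.839 without control 1 and 2.19 without control 2. That of BST2, 1.11, was 0.732 without control 1 and 2.33 without control 2. For IFITM1, 1.26 with all libraries, it was 0.791 without control 1 and 3.14 without control 2. All 3 thus lay below 1 without control 1 and above 1 without control 2. The ratio of IFITM2, 0.607, stayed below 1, at 0.448 without control 1 and 0.941 without control 2.

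Long members differed more than short ones. Of the 15 members with a longest coding transcript over 3.48 kb, the median of all genes, 13 were higher in siLIX1L without overlap and 1 lower, with a median edgeR log2 fold change of 1.35. Of all genes with such transcripts, 32.2% were higher and 12.6% lower without overlap. Of the 22 shorter members, 8 were higher and 2 lower, with a median of 0.45, against 12.2% higher and 31.1% lower among all shorter genes. The same trend ran through all genes, whose medians were 0.16 for long and -0.23 for short transcripts. Across the 37 members the fold change and transcript length had a Spearman rho of 0.56 and a Pearson r of 0.53, and across 13008 genes a rho of 0.39 and an r of 0.34; genes are not independent and share the same 5 libraries. The ratio of control 2 over control 1 ran the other way, with a rho of -0.52 over the members and -0.23 over all genes. With a trend on transcript length and GC content removed, an alternative added after seeing the data, limma called 0 of all genes (1508 at unadjusted p under 0.05), and the members' median limma difference was 0.82, against 0.69 before. What this trend contributes to each gene was not tested.

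**Figure D4:**
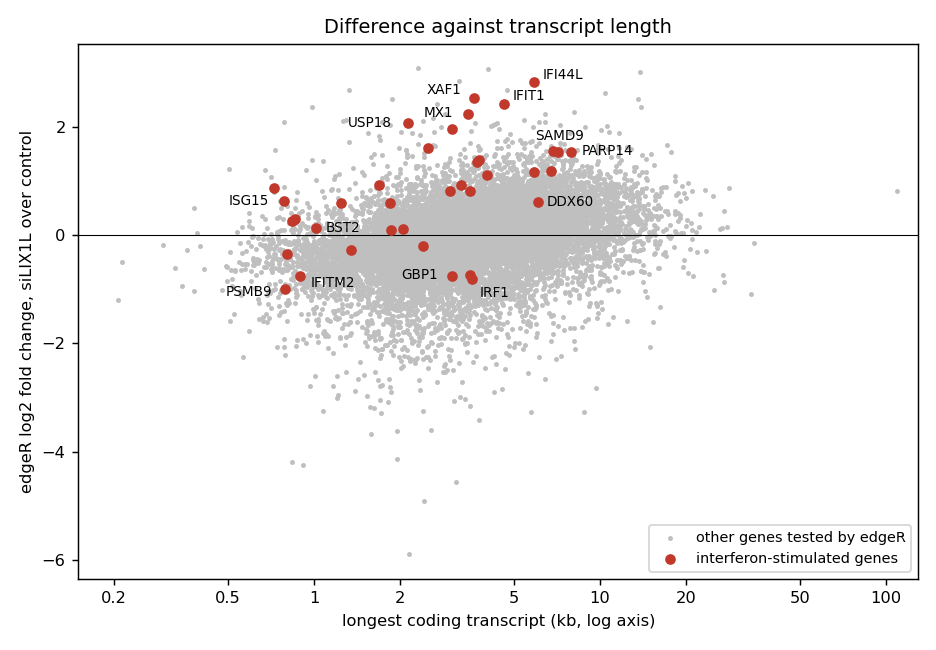
EdgeR log2 fold change (siLIX1L over control) against the length of the longest coding transcript in kilobases on a log axis, for all genes tested by edgeR and for 37 interferon-stimulated genes. Members with long transcripts lie mostly above 1, and those with transcripts near 1 kb lie on both sides of 0.

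Members with and without ISRE letters had overlapping ranges of difference, which were not tested against each other. Of the 23 members with the letters, 18 had a positive edgeR fold change, with a median log2 of 0.82, and 13 were higher and 1 lower without overlap. Of the 8 tested members without the letters in their windows, 6 were positive, with a median of 0.76, and 4 were higher and 2 lower without overlap, where all genes tested had 22.2% higher and 21.8% lower. Among all genes tested, the 434 with the letters had a median of 0.10 and 57.1% were positive, against -0.04 and 47.4% for the 10155 without.

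A wider list of 52 other interferon-stimulated genes held mostly positive differences, of smaller size. Of 50 tested by edgeR, 36 were positive (47.3% of all genes) and 14 negative, with a median log2 fold change of 0.46 against -0.04 over all genes. TRIM14, an adaptor of antiviral signalling, rose in edgeR, 1 of 50 with none called lower, and had 143, 183 and 278 RPM in siLIX1L libraries, against 62.3 and 42.0 RPM in controls (log2 1.95, edgeR adjusted p = 0.0486). By limma TRIM14 stood outside the threshold (adjusted p = 0.0517), and 0 of 36 passed. NANS overlaps TRIM14 on the other strand, so the TRIM14 count is uncertain without strand. DESeq2 called 7 of 50 higher and 1 lower, against 6.32% and 6.22% of all genes. All siLIX1L libraries were above both controls in 24 of the 52, against 22.2% of all genes tested by edgeR, and below both in 1, against 21.8%. The 1 was C1R, a complement protease, which had 56.3, 62.2 and 76.6 RPM in siLIX1L libraries, against 154 and 445 RPM in controls.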

How the data were processed

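RNA of LX-2 cells was sequenced 48 h after transfection in 3 siLIX1L and 2 control libraries, grouped by the labelled siRNA. The authors deposited FPKM for 19936 genes per library, per the file headers, and for siLIX1L 3 also a raw read count and a gene length per gene. Bowtie 0.12.2 and the build mm8 are named per the submitters' processing notes. That is a mouse build, at odds with the human Ensembl IDs, and the counting tool, annotation and strand setting are not stated in these sources. The lengths equal gene spans with introns in GENCODE 29 (GRCh38) for 98.2% of 19926 genes, and gene coordinates are from that annotation.

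FPKM times length gave whole reads, to a tolerance of 0.01, for 100% of values in each library, and these equalled the deposited counts for all 19936 genes of siLIX1L 3. Their totals, 14856104 to 18294056 reads, are the depth and the base of RPM. Groups were compared on log2(FPKM + 1) with limma 3.58.1 under R 4.3.3 (robust empirical Bayes with a trend, adjusted by Benjamini-Hochberg at 0.05, two-sided). This scale understates the change of low genes. The fit covered 6464 genes with at least 1 FPKM in 2 libraries and had no covariates. EdgeR 4.0.16 (quasi-likelihood, TMM) called 188 genes and DESeq2 1.42.0 called 1673 on the recovered reads. Plain fold values are ratios of mean RPM. Motifs were searched in RefSeq windows of 300 bases on both strands. The scripts were tested on simulated data.

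The members, lists and tests were chosen with earlier results of these data known. Values in every library were to be given for members called by limma or edgeR, members with a negative difference, the ligand and the transcription factors; those of the other members are shown in addition, as are SOX9, CD14 and C1R, which were chosen after their values were seen. A gene of the signalling list that was to be named is not reported here. The alternatives were the minimum level, pseudocount, scaling, unit, tool, replicate block, siLIX1L 1 and 2 averaged, and each library left out. The removal of a loess trend (span 0.5) on transcript length and GC content, and the counts of members without overlap under other settings, were added after seeing the data.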

Additional observations from a re-analysis of the deposited data

How the results depend on the processing

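Of 522 member differences recomputed under the alternatives, 465 kept their direction and side of the threshold, 15 changed direction, 8 lost a call, all in SAMD9, and 34 gained one. The members called, 1 in the main test, numbered 3 at a minimum of 5 FPKM (IRF1 lower, PARP14 and SAMD9 higher). They numbered 2 with a pseudocount of 0.1, 2 with quantile normalization, 2 on log2(RPM + 0.5) and 18 by DESeq2. They numbered 0 with no minimum level, with siLIX1L 1 and 2 averaged or with the length and GC trend removed. For the 5 FPKM minimum, the pseudocount of 0.1 and log2(RPM + 0.5), the share of all genes called is not given here. Those member counts are a description. Over all genes, limma called 121, against 233 with quantile normalization, 188 by edgeR, 1673 by DESeq2, and 0 with no minimum (3407 genes at unadjusted p under 0.05), with siLIX1L 1 and 2 averaged (975) or with the trend removed (1508). With 1 library left out the counts ran from 0 to 1517 over all genes and from 0 to 11 over the members. A lone control was assumed to vary like the siLIX1L libraries. The members' median limma difference, 0.69, then ran from 0.36 without siLIX1L 3 to 0.86 without siLIX1L 1, and it was positive in every setting run.

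Changes of direction were all in genes whose groups overlapped. On log2(RPM + 0.5) ISG20 was -0.011 and RSAD2 0.027. With the trend removed IFITM3 was 0.16, PSMB8 0.080 and LGALS3BP 0.060, and LGALS3BP was 0.21 with quantile normalization. Leaving out control 1 and then control 2 gave -0.29 and 1.07 for IFI6, -0.36 and 1.42 for IFITM1, -0.47 and 1.18 for BST2, -0.73 and 0.22 for IFITM3, -0.50 and 0.063 for PSMB8, and -0.51 and 0.23 for LGALS3BP. With 1 library left out, IRF7 ran from -0.13 without siLIX1L 3 to 0.22 without siLIX1L 1. Its highest difference over all alternatives was 0.44. The cause was not tested.

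The labels do not say whether the replicate numbers pair the libraries. The deviations of same-numbered libraries from their group means correlated at -0.12 and -0.10. With 2 controls these deviations mirror each other, so the correlations cannot decide whether libraries were paired. No control shares the replicate number of siLIX1L 3, so with the replicate block that library adds nothing to the siLIX1L against control difference. Limma with the block thus compared only the other siLIX1L libraries with the controls. This fit called 94 genes and 2 members, IFIT1 and IFI44L, and SAMD9 had a limma adjusted p of 0.0563. The IRF7 difference was -0.13, the same as without siLIX1L 3. IFNB1 and CMPK2 were too shallow to compare, and with 3 libraries against 2 a difference of a single gene rests on few samples.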
